A study of Mus musculus with 28 samples.

Results

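The combined treatment was a single injection of trichostatin A (TSA) followed by exploration of an unfamiliar box, in wild-type mice, and it was set against vehicle-injected wild-type mice that stayed in their standard cages. The comparison used 6 of the 28 arrays of the study, 3 of the group labelled Novelty TSA (replicates 1 to 3) and 3 of the group labelled Standard Cage Vehicle (replicates 3 to 5). A further 6 wild-type arrays, 3 of TSA in the standard cage and 3 of novelty with vehicle, gave the single effects, whose sum was set against the joint effect. Mice given TSA received 2.4 mg/kg by intraperitoneal injection and hippocampi were taken 75 min later. In the combined group the mice entered the box 15 min after TSA and stayed for 1 h. The vehicle was DMSO in saline. All were 3-month-old females of a C57/DBA F1 hybrid background, and each array held pooled hippocampal RNA of 3 to 4 mice (the extraction protocol gives 4), so replicate error here is variation among pools. Littermates labelled cbp+/-, a label for mice with 1 disrupted copy of the gene for the histone acetyltransferase CBP, went through the same treatments and gave 3 arrays after novelty with TSA and 3 after vehicle in the standard cage. These control arrays also belong to a parallel series of the same laboratory.

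TSA blocks the zinc-dependent histone deacetylases, enzymes that remove acetyl groups from histones and other proteins, and histone acetylation is in general higher at transcribed genes. Exploration of a new place excites hippocampal neurons, and calcium entry then switches on immediate early genes within minutes. Many of these genes carry cAMP response elements or serum response elements near their start, which are bound by CREB, a partner of CBP, and by serum response factor.

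Expression is given as log2 values per gene, and a difference of 1 is a doubling. Each of the 8 groups in the fit (the naive arrays were left out) had 1 array in each of 3 array sets, numbered 2 to 4, in which vehicle replicates 3, 4 and 5 stood beside replicates 1, 2 and 3 of the other groups. No label names these sets. They were found from the values themselves, since arrays of the same set deviated from their group means together. The correlation of deviations between the combined and the vehicle arrays was 0.42 to 0.60 within a set and -0.44 to -0.05 between sets. The deviations of a group cancel out by construction, so positive values within sets bring negative ones between sets. Differences were tested with limma, with the array set as a block, over 19938 named genes, and a gene was called at a Benjamini-Hochberg adjusted p under 0.05. The hippocampal markers were present: the granule cell factor Prox1 had 8.66, 8.21 and 7.77 after novelty with TSA, against 8.32, 8.54 and 8.04 after vehicle, and the pyramidal marker Wfs1 had 8.86, 8.22 and 8.22, against 8.65, 8.39 and 7.90.

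In 1 of the 3 combined arrays, replicate 1 (set 2), markers of the choroid plexus, a secretory tissue that lies against the hippocampus, were raised. Ttr, the transthyretin gene that defines this tissue, had 12.28, 6.61 and 7.32 after novelty with TSA, against 7.48, 6.96 and 6.84 after vehicle. Clic6 had 6.79, 4.26 and 4.44, against 4.16, 4.33 and 4.30. All 15 measured markers of the list had a positive joint effect, with a median of 0.34 and a range of 0.08 to 1.65, and 0 of them were called. The same raised markers appeared in 1 vehicle and 1 TSA array of mice labelled cbp+/-. In these 3 arrays the mean deviation of the markers was over the limit of 0.9. It was 0.57, under the limit, in replicate 2 of novelty with TSA in mice labelled cbp+/-. Leaving out the 3 arrays over the limit left 22 of the 71 genes called in the main comparison. This also removes 1 of the 3 combined pools, and the part of the tissue in the other 49 calls was not tested.

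Combined treatment moved 71 genes past the threshold, 0.356% of those tested, 57 higher (0.286%) and 14 lower (0.0702%). The genes at the top were the transcription factors and effectors that neurons switch on with activity, led by Npas4, Egr2, Fosb, Fos, Nr4a1 and Arc. Beside them stood genes whose larger single effect was that of TSA, such as Plag1, Rest, L3mbtl3 and Fv1, and a pair of chaperones of the endoplasmic reticulum, Hspa5 and Sdf2l1. The median joint effect of the 57 was 0.57 and that of the 14 was -0.51, against 0.01 over all genes. All 71 had 1 sign in the 3 array sets, and in 54 the combined and vehicle arrays did not overlap, against 26.5% and 6.64% of all genes. Of the 57, 46 were without overlap and higher, against 3.89%. The genes were called on these same arrays, so both traits follow in large part from the choice and give no further support. The calls rest on the array sets: with no block the same estimates gave 0 calls by limma, 519 genes at an unadjusted p under 0.05 and a lowest adjusted p of 0.107. Where the line fell is shown by P4ha2, Brms1 and Gpr3, just inside at adjusted p values of 0.048 to 0.0484, and by Rcor1, Zswim6 and Morc2b, just outside at 0.0511.

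Promoters of the genes that rose are shown here because most of the activity-regulated members with a matched promoter hold short elements that can be read in the sequence; they were chosen from those that do. The sequences are from RefSeq (GRCm38.p6), run 5′ to 3′ on the gene's strand from 250 bases before to 50 bases after the annotated start, and carry in capitals each core element TGACG or its reverse complement, each CArG box (the core of the serum response element) and each endoplasmic reticulum stress element (ERSE: CCAAT, 9 bases of any kind, then CCACG). Where a gene had several starts, the one holding most elements is printed. Npas4 (chr19:4989922-4990221, minus strand), Fos (chr12:85473640-85473939, plus strand), Nr4a1 (chr15:101266596-101266895, plus strand), Egr2 (chr10:67537619-67537918, plus strand), Dio2 (chr12:90738989-90739288, minus strand) and Hspa5 (chr2:34771840-34772139, plus strand) are given.
Npas4: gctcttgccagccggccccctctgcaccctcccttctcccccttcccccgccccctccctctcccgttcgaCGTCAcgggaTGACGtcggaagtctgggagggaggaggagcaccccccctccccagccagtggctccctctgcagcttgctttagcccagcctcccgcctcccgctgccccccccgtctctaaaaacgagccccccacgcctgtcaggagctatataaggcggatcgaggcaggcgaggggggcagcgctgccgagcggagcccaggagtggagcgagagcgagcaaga
Fos: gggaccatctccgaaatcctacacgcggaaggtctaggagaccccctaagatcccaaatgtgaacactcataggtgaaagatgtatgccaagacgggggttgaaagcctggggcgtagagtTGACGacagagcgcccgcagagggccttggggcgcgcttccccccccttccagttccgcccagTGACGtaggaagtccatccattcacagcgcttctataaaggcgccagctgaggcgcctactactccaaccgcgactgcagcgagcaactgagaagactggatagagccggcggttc
Nr4a1: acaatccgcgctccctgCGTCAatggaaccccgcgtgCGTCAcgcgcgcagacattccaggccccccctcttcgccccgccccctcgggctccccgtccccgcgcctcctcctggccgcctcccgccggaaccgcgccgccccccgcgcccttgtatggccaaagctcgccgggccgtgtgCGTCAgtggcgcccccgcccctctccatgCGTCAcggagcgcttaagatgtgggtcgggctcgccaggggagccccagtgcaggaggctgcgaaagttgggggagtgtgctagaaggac
Egr2: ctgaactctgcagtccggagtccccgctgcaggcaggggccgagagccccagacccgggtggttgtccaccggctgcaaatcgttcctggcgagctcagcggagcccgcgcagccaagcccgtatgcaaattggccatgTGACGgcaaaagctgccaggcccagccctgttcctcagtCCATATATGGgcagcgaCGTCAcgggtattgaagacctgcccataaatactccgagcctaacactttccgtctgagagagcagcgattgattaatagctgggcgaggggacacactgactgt
Dio2: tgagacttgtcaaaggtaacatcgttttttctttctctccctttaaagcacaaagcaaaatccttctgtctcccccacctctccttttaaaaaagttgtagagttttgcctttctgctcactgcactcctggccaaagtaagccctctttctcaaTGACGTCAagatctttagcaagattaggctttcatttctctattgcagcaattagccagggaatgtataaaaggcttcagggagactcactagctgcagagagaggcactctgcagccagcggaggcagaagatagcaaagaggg
Hspa5: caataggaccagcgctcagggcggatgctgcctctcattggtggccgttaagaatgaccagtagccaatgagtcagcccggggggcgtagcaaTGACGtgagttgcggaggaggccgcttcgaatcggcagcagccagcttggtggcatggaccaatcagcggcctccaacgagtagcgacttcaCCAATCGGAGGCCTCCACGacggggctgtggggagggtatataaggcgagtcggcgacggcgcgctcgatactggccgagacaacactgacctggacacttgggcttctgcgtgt

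Npas4 held 2 core elements, Fos 2 and Nr4a1 4. Egr2 held 2 and a CArG box. Dio2 held the full palindrome TGACGTCA, which contains the core element on each strand, and Hspa5 held 1 core element and the stress element. Promoter sequences were found for 50 of the 69 called genes with a name other than a predicted one. Of 41 matched genes that rose, 26 (63.4%) had a promoter with the core element on either strand, against 23.0% of all 27025 genes in the table; of 9 matched genes that fell, 1 (11.1%) had it. Among the 22 called genes of the activity lists, 17 were matched and 15 (88.2%) held it, while Gadd45b and Inhba did not; among the other 24 matched genes that rose, 11 (45.8%) held it. The full palindrome stood in 3 of the 41 (7.32%), namely Btg2, Dio2 and Paqr3, against 2.03% of all genes. A CArG box stood in 4 (9.76%), Dusp5, Egr2, Mknk2 and Sinhcaf, against 1.81%. The stress element stood in 1 (2.44%), Hspa5, against 0.137%. Counted by promoter, the core element was in 56.6% of the 53 promoters of the genes that rose and in 20.8% of all 32851. The promoters of the genes that rose were richer in G and C (median 65.0% of bases) than those of the genes that fell (57.3%) and all promoters (52.7%), and the core element contains a CG pair. These matches describe sequence and show no binding.

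Npas4, a transcription factor made in neurons after calcium entry, had the largest rise. It had 8.14, 7.47 and 7.50 after novelty with TSA, 6.06, 5.52 and 5.55 after TSA alone, 7.92, 7.75 and 7.57 after novelty alone and 6.37, 5.80 and 5.73 after vehicle. All novelty arrays, with or without TSA, lay above all cage arrays. The joint effect was 1.74 ± 0.12 (SE, 3 arrays against 3, limma adjusted p = 1.06e-08). Egr2, a zinc finger factor, had 7.24, 6.96 and 6.98 after novelty with TSA, against 6.24, 5.65 and 5.40 after vehicle, a rise of 1.30 ± 0.16 (limma adjusted p = 0.000121). The AP-1 subunit Fosb had 7.67, 7.76 and 7.86, against 7.0, 6.40 and 6.21 after vehicle, a rise of 1.23 ± 0.15. Fos, of the same family, had 6.35, 6.89 and 7.17, against 5.72, 5.30 and 5.89, a rise of 1.17 ± 0.20. The orphan nuclear receptor Nr4a1 had 10.36, 9.84 and 10.07, against 9.38, 8.72 and 8.69, a rise of 1.16 ± 0.14. In these 4 genes too, each combined array was above each vehicle array. Arc, which acts at the synapse on AMPA receptor traffic, had 9.97, 9.66 and 9.86 after novelty with TSA, 9.05, 8.31 and 8.19 after TSA alone, 10.35, 9.94 and 9.63 after novelty alone and 9.26, 8.58 and 8.43 after vehicle, with a joint effect of 1.07 ± 0.13 (limma adjusted p = 0.000121).

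**Figure D1:**
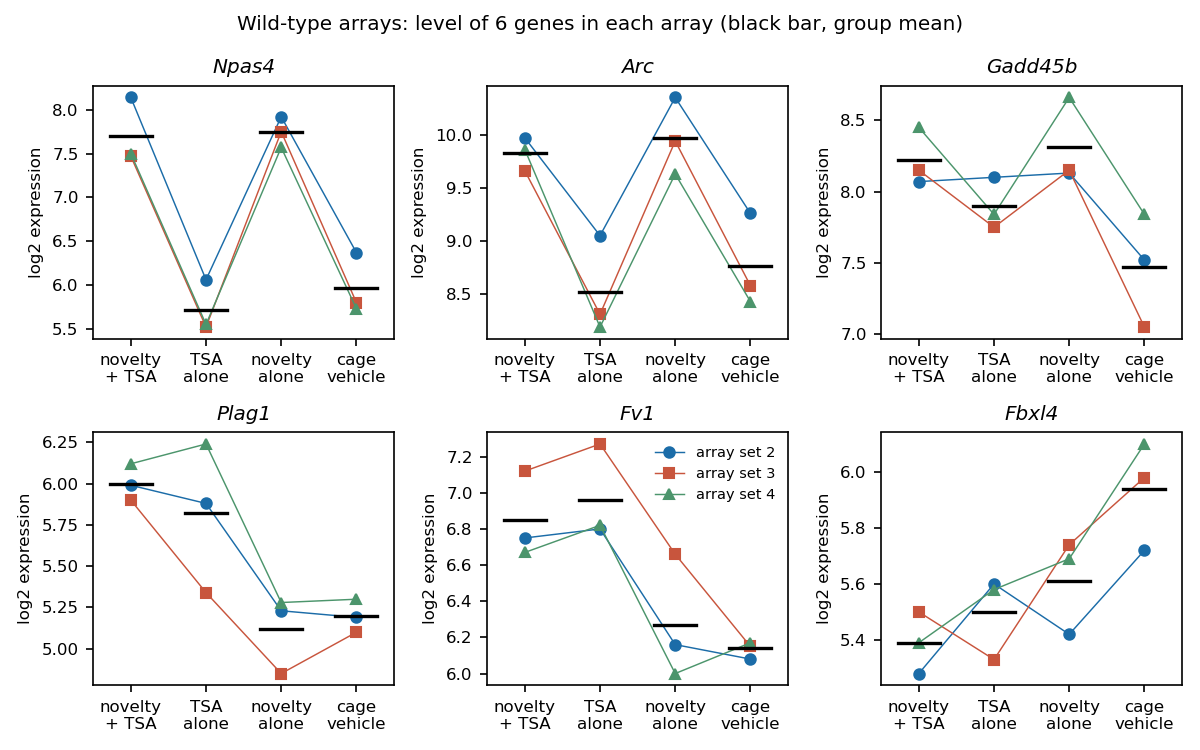
Log2 expression of 6 genes in the 12 wild-type arrays, with 3 arrays per group, lines joining the arrays of 1 array set and black bars at group means. Npas4 and Arc were high in both novelty groups, Gadd45b had a higher mean in each of the 3 treated groups than after vehicle, Plag1 and Fv1 were high in both TSA groups, and Fbxl4 was lowest on average after novelty with TSA.

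Among 25 measured immediate early transcription factors 10 rose (40%, against 0.286% of all genes), 0 fell and 15 were not called. The median was 0.44, and 24 of the 25 joint effects were positive, against 54.8% of all genes. Beside those above, Egr1 rose by 0.84 ± 0.13, Egr4 by 0.80 ± 0.16, Nr4a2 by 0.57 ± 0.09, Junb by 0.54 ± 0.12 and Nr4a3 by 0.46 ± 0.09 on the log2 scale. Egr1 overlapped between the groups by 1 vehicle array: it had 8.82, 8.24 and 8.71 after novelty with TSA, against 8.35, 7.39 and 7.50. The remaining Egr member, Egr3, had a joint effect of 0.41 ± 0.10 (limma adjusted p = 0.0901). Fosl1, which had the only negative value of the list, stood at -0.02.

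Among 36 effectors of neuronal activity 12 rose (33.3%, against 0.286% of all genes), 0 fell and 24 were not called, with a median of 0.39. Gadd45b, a stress protein tied to DNA demethylation, rose by 0.75 ± 0.14 and the kinase Sik1, which acts on CREB coactivators, by 0.74 ± 0.13. Dio2, which converts thyroid hormone to its active form, had 8.31, 8.28 and 8.07 after novelty with TSA, against 7.80, 7.33 and 7.36 after vehicle, a rise of 0.73 ± 0.11 (limma adjusted p = 0.00205). Inhba, a subunit of activin, rose by 0.67 ± 0.14 and Nptx2, a pentraxin that clusters AMPA receptors, by 0.57 ± 0.11. The neurotrophin gene Bdnf had a joint effect of 0.17 ± 0.09 (limma adjusted p = 0.558) and the synaptic scaffold Homer1 one of 0.40 ± 0.11 (adjusted p = 0.12). Dusp1, a phosphatase of MAP kinases, had a larger estimate than most called genes, 0.90 ± 0.21, and the matricellular Ccn1 had 0.73 ± 0.18, and neither was called (limma adjusted p = 0.0703 and 0.0782). With these lists chosen with earlier results in view, their counts describe the list and give no independent evidence of its direction.

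Of 21 genes of the unfolded protein response 2 rose (9.52%, against 0.286% of all genes), 0 fell and 19 were not called, with a median of 0.23. Hspa5, the main chaperone of the endoplasmic reticulum (BiP), had 10.16, 10.24 and 10.21 after novelty with TSA, against 9.66, 9.68 and 9.58 after vehicle. The groups stood well apart, with a rise of 0.56 ± 0.10 (limma adjusted p = 0.0106). Sdf2l1, a cofactor in the same compartment, had 7.43, 7.29 and 7.46, against 6.90, 6.45 and 6.60, a rise of 0.74 ± 0.13 (limma adjusted p = 0.00704). Ern1, which encodes the stress sensor IRE1 and was not on the list, rose by 0.52 ± 0.11. The cytosolic heat shock list had 0 of 17 called and a median of 0.02. The list of glucocorticoid-induced genes had 0 of 26 called and a median of 0.12. Hspa5 and Sdf2l1 were also called after novelty alone, at 0.52 and 0.66 (limma adjusted p = 0.0288 and 0.0256). After TSA alone they had 0.08 and 0.43 and were not called.

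In 25 of the 57 genes that rose, the estimated TSA effect was larger than the estimated novelty effect, with medians of 0.32 and 0.14. The difference between the 2 was not tested, and in some genes they nearly tied, as in Rpusd2 (0.19 and 0.189). Plag1, a zinc finger factor of development and growth, had 5.99, 5.90 and 6.12 after novelty with TSA, 5.88, 5.34 and 6.24 after TSA alone, 5.23, 4.85 and 5.28 after novelty alone and 5.19, 5.10 and 5.30 after vehicle. Both TSA groups lay above both groups without TSA. Its joint effect was 0.81 ± 0.13 (limma adjusted p = 0.00704), its TSA effect alone was 0.62 and its novelty effect alone was -0.08. Fv1, an endogenous retroviral gene that restricts retroviruses, had 6.75, 7.12 and 6.67 after novelty with TSA, 6.80, 7.27 and 6.82 after TSA alone, 6.16, 6.66 and 6.0 after novelty alone and 6.08, 6.15 and 6.17 after vehicle. Its joint effect was 0.71 ± 0.13, and it was the 1 gene that also rose after TSA alone (0.83, limma adjusted p = 0.0303). Rest, the repressor of neuronal genes that recruits deacetylases, had 5.95, 6.01 and 5.59 after novelty with TSA, against 5.14, 5.17 and 5.24 after vehicle, a rise of 0.66 ± 0.14, with single effects of 0.55 for TSA and 0.00 for novelty.

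Chromatin regulators were also among the called genes. Of 29 corepressor genes 2 rose (6.9%, against 0.286% of all genes), Rest and Brms1, a member of Sin3 deacetylase complexes (0.50 ± 0.11). Of 38 histone methylation enzymes and readers 1 rose (2.63%), L3mbtl3, which binds methylated lysine (0.64 ± 0.11). Its levels were 7.75, 7.93 and 8.07 after novelty with TSA, against 7.07, 7.31 and 7.44 after vehicle. Sinhcaf, a member of Sin3 deacetylase complexes, and Tet3, which oxidises methylated cytosine, were on none of the lists and rose by 0.63 ± 0.13 and 0.45 ± 0.10. The 11 deacetylases had 0 calls and a median of 0.07; Hdac1 had 0.26 ± 0.09 (limma adjusted p = 0.238). The 34 acetyltransferases and acetyl readers had 0 calls and a median of -0.08, with 23 of 34 negative, against 8960 of all 19938 genes. Their median was -0.09 after TSA alone and 0.03 after novelty alone. Crebbp, which encodes CBP, had a joint effect of -0.06 ± 0.12. Kmt5b, a methyltransferase of histone H4, had -0.49 ± 0.12 and was not called (adjusted p = 0.0787). Of 28 genes of G1 and S phase 1 rose (3.57%, against 0.286% of all genes), Ccnd2, the D-type cyclin of neural progenitors. It had 10.04, 10.03 and 10.06, against 9.54, 9.53 and 9.45 after vehicle (0.54 ± 0.09, limma adjusted p = 0.00602). Of 30 developmental factors Plag1 alone was called (3.33%, against 0.286% of all genes). Sox11 had 0.49 ± 0.14 (limma adjusted p = 0.151). Clock genes (18 measured) and splicing factors (27) had 0 calls, with medians of 0.12 and -0.05.

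The 12 named genes that fell did so by 0.43 to 0.55. Fbxl4, an F-box protein of mitochondria, had 5.28, 5.5 and 5.39 after novelty with TSA, against 5.72, 5.98 and 6.10 after vehicle, and fell by 0.55 ± 0.10 on the log2 scale (limma adjusted p = 0.0106). Hint1, a nucleotide hydrolase, had 8.23, 7.29 and 8.57, against 8.68, 8.08 and 8.98: the groups overlapped, since the sets differed in level, but each set showed the fall. Nrde2, a nuclear protein of RNA metabolism, had 5.77, 6.02 and 5.89, against 6.27, 6.72 and 6.31, with no overlap. Gmeb1, which binds glucocorticoid modulatory elements, had 5.95, 5.63 and 6.01, against 6.20, 6.39 and 6.46, also with no overlap. Pnma3, Rhoh and Wars2, which encodes a mitochondrial tRNA synthetase, did not overlap either, while Hypk, Snord104, Lyrm2, Dctn6 and Taf1b did. In all, 8 of the 14 were without overlap and lower, against 2.75% of all genes. They were called on these same arrays, so this share is a description. Of the 14, 2 were predicted genes.

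Markers of cell types gave 0 calls in every list. Medians were 0.05 for CA1 neurons (8 markers), 0.01 for dentate granule neurons (10), -0.01 for interneurons (11), astrocytes (10) and microglia (10), -0.09 for endothelium (9) and -0.16 for meningeal fibroblasts (12). The 2 measured erythrocyte markers had a median of 0.23. Oligodendrocyte markers had a median of -0.20, with 8 of 9 negative (8960 of all 19938 genes were), from -0.57 for Opalin to 0.05 for Mal. This came mainly from set 3, in which their mean deviation was -0.33 after novelty with TSA, against 0.30 after vehicle. It was 0.31, against 0.34, in set 2 and -0.01, against 0.00, in set 4. Every other array of set 3 was below 0 as well. TSA alone had -0.37 and novelty alone -0.11 in wild type, and mice labelled cbp+/- had -0.16 to -0.06. In that set the wild-type vehicle array was the highest and the wild-type arrays with TSA were the lowest. Over all sets the list had a median of -0.18 after TSA alone and of -0.02 after novelty alone. The reason for these differences was not tested. Mean endothelial markers in set 3 were -0.31 after novelty with TSA, against 0.13 after vehicle. In whole tissue, fewer cells of a type and less RNA per cell cannot be told apart.

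**Figure D2:**
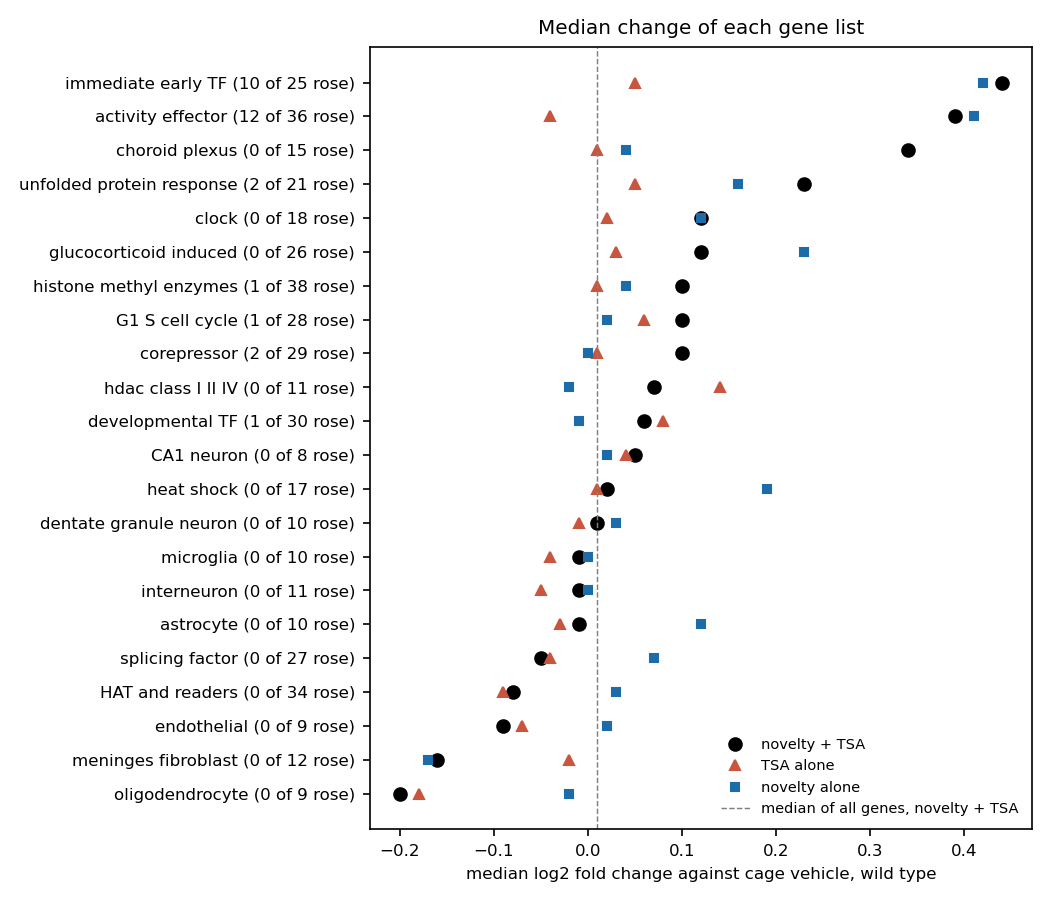
Median log2 fold change of each gene list against cage vehicle in wild type, for novelty with TSA, TSA alone and novelty alone; the dashed line is the median of all genes after novelty with TSA. The immediate early and activity lists stand highest, at 0.44 and 0.39, and the choroid plexus list follows at 0.34.

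The question of the design was whether TSA and novelty together do more, or less, than their separate effects added. For no gene did the joint effect depart from the sum at the threshold: limma gave 0 calls (0%), 697 genes at an unadjusted p under 0.05 (3.5%) and a lowest adjusted p of 1. Among the 57 genes that rose, the median joint effect was 0.57 and the median sum was 0.55; the medians of the single effects were 0.19 for TSA alone and 0.29 for novelty alone. Among the 14 that fell, the median joint effect was -0.51 and the median sum -0.53, with -0.26 for TSA alone and -0.25 for novelty alone. The 3 effects share the same vehicle arrays, and these genes were chosen for their joint effect, so these values are a description.

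The precision of the departure sets what could be seen. Its median SE was 0.15 over the 71 genes, and the departures ran from -0.51 to 0.29. For Npas4 the joint effect of 1.74 stood beside a sum of 1.52, a departure of 0.22 with a 95% interval of -0.14 to 0.57. For Arc the departure was 0.09 (-0.29 to 0.48), for Fosb -0.03 (-0.47 to 0.41), for Fos 0.01 (-0.56 to 0.58) and for Plag1 0.26 (-0.13 to 0.66). For each of these genes, departures of any size within its interval were not excluded. The 95% interval left out 0 for 5 of the 71 genes, against 3.5% of all genes, and 4 of these 5 were negative. For Gadd45b and Olfr330 this was a smaller rise than the sum, and for Wars2 and Lyrm2 a larger fall. Gadd45b showed the largest: it had 8.07, 8.15 and 8.45 after novelty with TSA, 8.10, 7.75 and 7.84 after TSA alone, 8.13, 8.15 and 8.66 after novelty alone and 7.52, 7.05 and 7.84 after vehicle. Its single effects of 0.42 and 0.84 summed to 1.26, its joint effect was 0.75 and the departure was -0.51 (-0.93 to -0.10, limma adjusted p = 1). The others were Olfr330 (-0.40), Wars2 (-0.30), Lyrm2 (-0.28) and Tspan33 (0.29). Olfr330 was low on all these arrays, with 4.28, 4.51 and 4.20 after novelty with TSA, against 3.86, 3.90 and 3.47 after vehicle. Sdf2l1, with a sum of 1.10 and a joint effect of 0.74, had a departure of -0.35 (-0.72 to 0.01).

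**Figure D3:**
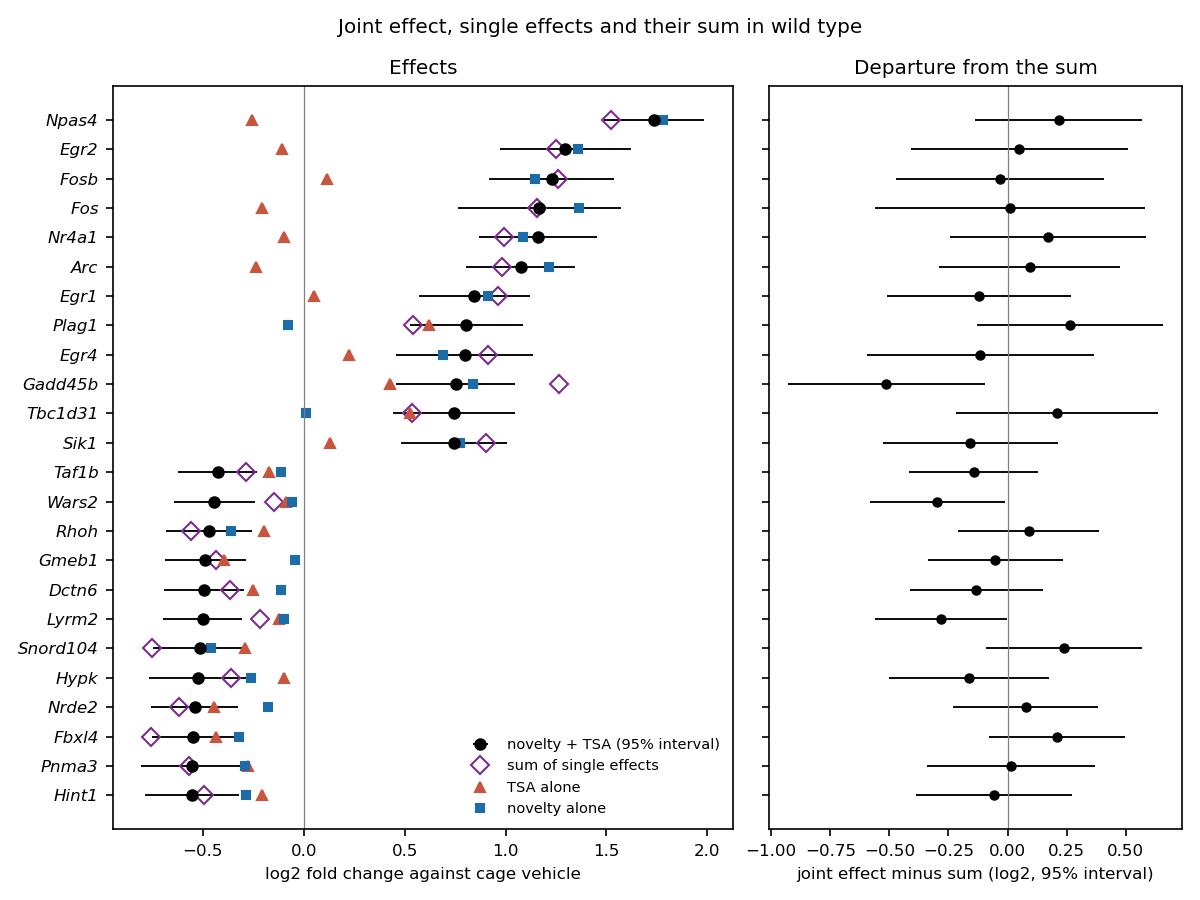
Left, log2 fold changes against cage vehicle of the 24 genes with the largest called rises and falls, for novelty with TSA (95% interval), the sum of single effects, TSA alone and novelty alone. Right, the joint effect minus the sum with its 95% interval, which leaves out 0 for Gadd45b, Wars2 and Lyrm2.

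The gain from each partner was also measured directly. Against TSA alone, novelty with TSA moved 17 genes (0.0853%), 16 of them up: Npas4 by 2.0, Egr2 by 1.41, Fos by 1.38, Arc by 1.31, Nr4a1 by 1.26, Ccn1 by 1.16, Fosb by 1.11, Dusp1 by 1.10, Dio2 by 0.80, Egr1 by 0.79, and at 0.47 to 0.62 Nptx2, Btg2, Nr4a3, Nr4a2, Spry4 and St8sia6. The 1 gene that fell was Mcmdc2, by 0.45. Against novelty alone, novelty with TSA moved 3 genes (0.015%). Plag1 rose by 0.89 (limma adjusted p = 0.0219). Gdf11, a growth factor of the TGF-beta family, rose by 0.52 and Lratd1 fell by 0.54 (each limma adjusted p = 0.0371). Mean Gdf11 was 7.43 after novelty with TSA, 7.46 after TSA alone, 6.9 after novelty alone and 7.24 after vehicle. Its joint effect was 0.185 and not called (limma adjusted p = 0.475). None of the activity genes was called in that comparison, with estimates of -0.04 for Npas4, -0.06 for Egr2, -0.14 for Arc and 0.09 for Fosb. Larger estimates stood on both sides, -0.20 for Fos and -0.29 for Dusp1, and 0.26 for Plk3 and 0.28 for Midn. The 95% intervals were -0.29 to 0.21 for Npas4, -0.60 to 0.20 for Fos and -0.74 to 0.15 for Dusp1. They were 0.035 to 0.49 for Plk3 and 0.05 to 0.50 for Midn. Differences of any size within these intervals were not excluded. By themselves, novelty moved 22 genes, all up (0.11%), and TSA moved 2 (0.01%), Fv1 up and the phosphatase Ptpn2 down by 0.61. Ptpn2 had a joint effect of -0.34 ± 0.10, not past the threshold (limma adjusted p = 0.171). Of the 57 genes that rose after the combined treatment, 32 had a larger novelty estimate than TSA estimate, a split that was not tested. These comparisons share arrays with the joint effect and are given side by side for that reason.

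The arrays of mice labelled cbp+/- give the same treatment on other arrays, fitted together with the wild-type ones. Crebbp itself was not lower on them: it had 9.70, 9.66 and 8.97 after novelty with TSA in mice labelled cbp+/-, against 9.51, 9.48 and 8.80 in wild-type mice, and 9.46, 9.77 and 9.16 after vehicle in mice labelled cbp+/-, against 9.37, 9.55 and 9.06 in wild-type mice. Its level therefore does not bear out the label, and where its probes lie relative to the disrupted part is not given in the sources used. In mice labelled cbp+/- the combined treatment moved 24 genes (0.12%), 20 up (0.1%) and 4 down (0.0201%), and 13 of them were also called in wild type, which is 54.2% of the cbp+/- calls and 18.3% of the wild-type calls. The 13 were Npas4, Egr2, Fosb, Fos, Nr4a1, Arc, Egr1, Gadd45b, Dio2, L3mbtl3, Nr4a2, Midn and Nr4a3. Npas4 had 7.87, 7.12 and 6.90 after novelty with TSA in mice labelled cbp+/-, against 6.49, 6.0 and 5.59 after vehicle, a rise of 1.27 ± 0.12 (limma adjusted p = 5.45e-06). The 57 wild-type genes had a median joint effect of 0.41 in mice labelled cbp+/-, positive in 56, against 48.6% of all genes, and of 0.57 in wild type, where they were chosen. The 14 that fell had a median of -0.17 in mice labelled cbp+/-, negative in 13, against 51% of all genes, and 0 were called. Taken the other way, the 20 genes that rose in mice labelled cbp+/-, whose estimates there use no wild-type array although the fit's error estimate does, had a median joint effect of 0.68 in both genotypes, a wild-type sum of 0.53 and a wild-type departure of 0.09.

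The difference between genotypes was itself tested and no gene passed (0%); limma gave 666 genes at an unadjusted p under 0.05 (3.34%). Npas4 had a joint effect of 1.27 in mice labelled cbp+/- and 1.74 in wild-type mice, a difference of -0.46 (95% interval -0.82 to -0.11). For Egr2 the difference was 0.14 (-0.31 to 0.60) and for Plag1, with 0.47 in mice labelled cbp+/- and 0.81 in wild-type mice, it was -0.34 (-0.73 to 0.06). Traf7, a ubiquitin ligase, had a difference of -0.47 (-0.71 to -0.23), with 7.88, 7.68 and 7.65 after novelty with TSA against 7.98, 7.74 and 7.78 after vehicle in mice labelled cbp+/-, and 7.93, 7.94 and 7.88 against 7.56, 7.49 and 7.57 in wild-type mice. The 71 genes were chosen on wild-type arrays, so their medians in the genotypes are no test of a difference. Choroid plexus markers were raised in 1 combined array in wild type and in 1 vehicle array in mice labelled cbp+/-. Their median joint effect was 0.34 in wild type and -0.24 in mice labelled cbp+/-. The part of this tissue in other genotype differences was not tested.

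**Figure D4:**
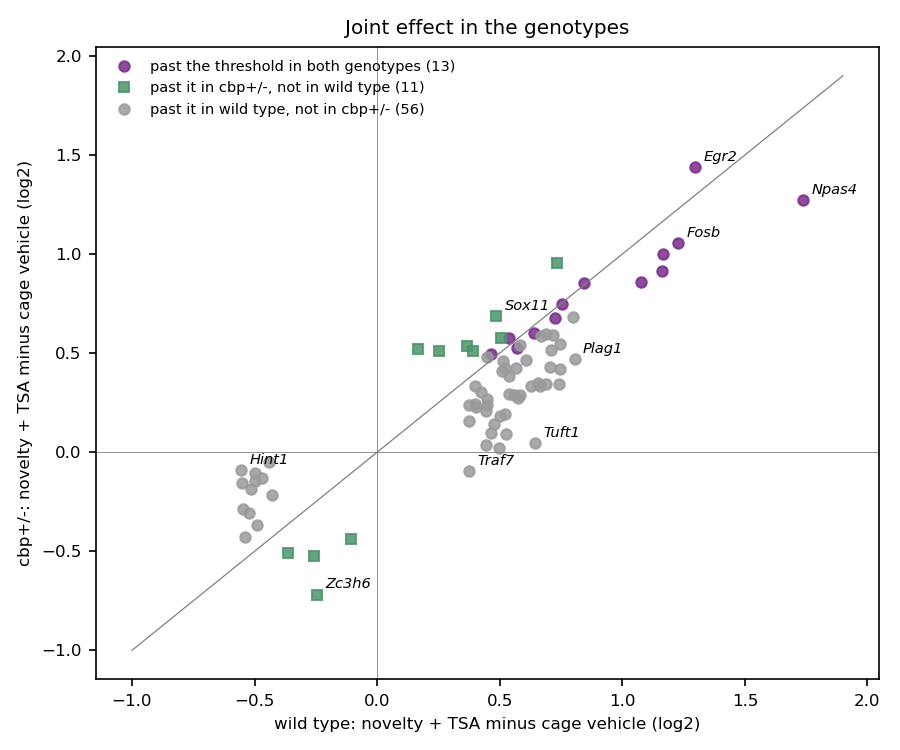
Joint effect in mice labelled cbp+/- (vertical) against wild-type mice (horizontal) for named genes called in either, as log2 fold change of novelty with TSA over cage vehicle; the diagonal marks equal effects. The 13 genes called in both genotypes lie at the upper right, and the genes that fell in wild type lie below 0 in both with smaller falls in cbp+/-.

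Single arrays mattered for most calls. Of the 69 called genes with a name other than a predicted one, 9 stayed past the threshold when each of the 6 compared arrays was left out in turn: Npas4, Egr2, Fosb, Nr4a1, Arc, Egr1, Dio2, Zfp948 and Nr4a2. The other 60 lost it in at least 1 case. The count fell to between 16 and 48 with 1 array left out. It was 16 without combined replicate 3, 20 without combined replicate 2 and 45 without combined replicate 1, and 23, 17 and 48 without vehicle replicates 3, 4 and 5.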

How the data were processed

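Hippocampal RNA was hybridised to Affymetrix Mouse Gene 1.0 ST arrays. The deposited table holds log2 expression values for 35556 transcript clusters on 28 arrays; per the labels' protocols the authors used GeneSpring GX 11 for processing, and the submitters' processing notes name RMA. RMA background-corrects, quantile-normalizes and summarises probes, so a shift shared by most genes would not be seen. The sources used here give no genome build. Array medians were 5.46 to 5.63, and the number of arrays limits the precision.

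The platform annotation gave 1 symbol for 21789 clusters. The cluster with the highest mean stood for each of 999 genes with several, which left 19938 genes; the 13767 clusters with no symbol or several were fitted separately (0 called in the joint effect, 899 at an unadjusted p under 0.05, limma). Groups came from the sample titles. limma 3.58.1 in R 4.3.3 fitted 24 arrays (8 groups of 3, the naive arrays left out) with 1 mean per group and the array set as a block, with two-sided tests adjusted within each comparison. Over all groups, array deviations showed correlations of 0.42 to 0.81 within sets and of -0.63 to -0.01 between them. A group's deviations cancel out, so the values between sets are no separate support. The median residual SD was 0.128 with the block and 0.186 without it. The sets were found in the values that were then tested, so p-values with the block may be too small. The fit was tested on simulated data.

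The members and the gene lists were chosen with earlier results of these data known. The naming rule took up to 12 called rises and 12 falls of the joint effect with 1 sign in all sets, up to 6 of each for the other comparisons (or the 5 with the smallest p), as many as 4 of each list, and a fixed set, without predicted genes; the other genes named (among them Ern1, Sinhcaf, Tet3, Olfr330, Tspan33, Zfp948, Midn, St8sia6 and the genes at the threshold) were chosen after their values were seen. Alternatives changed the block, the arrays, the filter on dim genes, the normalization and the variance model.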

Additional observations from a re-analysis of the deposited data

How the results depend on the processing

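The call counts of 8 comparisons and the joint effect and departure of each gene named for them were recomputed under each alternative. The departure from the sum and the genotype difference stayed at 0 calls by limma in every setting but 1: with the label numbers as replicate block the departure had 2984 calls. That block pairs vehicle replicate 3 with combined replicate 3 of another array set and leaves vehicle replicates 4 and 5 with no partner, so by construction its vehicle contrasts run across array sets; it gave 3567 calls for the joint effect, 3851 for TSA alone, 4309 for novelty alone and 3824 for the joint effect in cbp+/-. With no replicate block the counts were 0 for the joint effect, 0 for TSA alone, 2 for novelty alone, 0 for joint minus novelty alone, 2 for joint minus TSA alone and 0 for cbp+/-.

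For the joint effect, called in 71 genes, the count was 35 with only the wild-type arrays, 14 with only the 6 compared, 110 with the naive arrays added (all 71 kept), 8 with naive and vehicle arrays as 1 unpaired control group, 112 with dim genes left out (mean log2 under 6), 42 with array weights and 22 without the arrays with choroid plexus tissue. Repeated quantile normalization (80), an intensity trend (60) and the mean over clusters (69) stayed within 1.5 times, and quantile normalization split the calls into 55 higher and 25 lower. Leaving out arrays or whole sets gave 4 to 48 calls for the joint effect, 0 to 1 for TSA alone, 9 to 16 for novelty alone, 0 to 3 for joint minus novelty alone, 4 to 17 for joint minus TSA alone and 2 to 24 in cbp+/-. TSA alone (2 calls) had 0 with wild-type arrays only, 0 with 1 control group, 0 without choroid arrays, 27 with array weights and 1 with the mean over clusters. Novelty alone (22) had 7 with 1 control group and 14 without choroid arrays. Joint minus novelty alone (3) had 1 with wild-type arrays only, 32 with naive arrays, 0 with 1 control group, 0 with quantile normalization, 1 with weights and 0 without choroid arrays. Joint minus TSA alone (17) had 2 with 1 control group and 211 with weights. The joint effect in cbp+/- (24) had 47 with cbp+/- arrays only, 41 with naive arrays, 7 with 1 control group, 42 without dim genes, 41 with quantile normalization, 121 with weights and 12 without choroid arrays. The cause of these moves was not tested.

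With the label-number replicate block 18 joint effects changed sign: Egr1 -0.013, Sik1 -0.025, Mknk2 -0.169, Dusp5 -0.063, Stk40 -0.465, Nr4a2 -0.024, Midn -0.455, Gpr3 -0.147, Tet3 -0.138, Spry4 -0.485, Rab43 -0.235, Gin1 0.491, Srsf5 0.488, Taf1b 0.312, Dctn6 0.605, Lyrm2 0.356, Snord104 0.097, Hypk 0.466; so did 6 departures: Egr1 0.738, Mknk2 0.772, Nr4a2 0.558, Gpr3 0.541, Rab43 0.463, Ep300 0.518. Snord104 also changed sign with 1 control group, to 0.006. The label numbers do not pair these arrays, and all other signs of the joint effect among called genes were kept in every setting.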

Other observations

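Other genes rose that belong to none of the lists and are named with their values already known. Mknk2, a kinase of the translation factor eIF4E, rose by 0.72 ± 0.13, the zinc finger gene Zfp948 by 0.71 ± 0.11 and the tuftelin gene Tuft1 by 0.64 ± 0.11 on the log2 scale. Zfp948 had 7.31, 7.12 and 7.33 after novelty with TSA, 6.87, 6.47 and 7.26 after TSA alone, 6.81, 6.58 and 7.03 after novelty alone and 6.60, 6.27 and 6.77 after vehicle; its single effects were 0.32 and 0.26, neither past the threshold. Stard4, a sterol carrier, rose by 0.46 ± 0.10 with single effects of 0.17 for TSA and 0.03 for novelty.

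The 5 genes with the smallest p for a departure from the sum were outside the called genes and dim, with mean log2 values under 6 in the wild-type arrays. Hottip had a departure of 0.56, Vmn1r86 of 0.56, Serpina1c of -0.74, Wdr25 of -0.61 and Nat8f5 of -0.50, each with a limma adjusted p of 1 and with a joint effect between -0.11 and 0.16 that was not past the threshold.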
